A study of Mus musculus with 2 samples.

Results

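Mir28a, Mir151 and Mir708 are mouse miRNA genes whose hairpins are attributed to LINE-2 elements, and together they make up 3 of the 2202 miRNA genes in the count tables. They were chosen by gene symbol alone: every table entry whose Ensembl identifier carries the GENCODE M21 symbol Mir28 (here listed as Mir28a), Mir151 or Mir708 was taken. The tables come from microRNA-seq of the left cerebral cortex of 2 female mice, 2 months old, of the B6CASTF1/J strain, whose name denotes a first cross of C57BL and CAST mice. Each animal gave 1 library of RNA below 30 nucleotides, made from total RNA, and both libraries form a single group with no treatment, so no condition was compared. The labels number the females separately and call the libraries biological replicates, but give them the same donor identifier. The text refers to animal 1 and animal 2.

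A miRNA is cut from a folded hairpin as a short RNA from its 5p or its 3p arm, and pairs with messenger RNAs mainly through its seed, bases 2 to 8, which leads to their repression. LINE-2 elements are ancient retrotransposons that no longer move in the mouse, and a repeat copy that can fold back on itself can give such a hairpin. Hairpins inside introns can be made from the host transcript, and levels of the host genes were not measured here. In other settings miR-28 is known as a brake on B lymphocyte growth and lymphoma, human miR-151 as a partner of its host gene in the movement of liver cancer cells, and mouse miR-708 as a miRNA induced by stress of the endoplasmic reticulum that limits rhodopsin in photoreceptors.

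The mature sequences of Mir28a and Mir708, from RefSeq on GRCm38.p6, are shown because their 5p arms carry the same seed. They are written 5′ to 3′ with the seed in capitals.
miR-708-5p: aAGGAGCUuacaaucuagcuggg
miR-28a-5p: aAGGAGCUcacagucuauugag
miR-708-3p: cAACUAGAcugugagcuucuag
miR-28a-3p: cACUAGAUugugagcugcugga

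The 5p arms of miR-708 and miR-28a carried the same seed, and among the 1738 mature sequences searched, which cover 46.3% of the measured gene symbols, no other arm had it at bases 2 to 8. The arms were identical over their first 8 bases. Over 22 aligned bases 16 matched (72.7%), and the differences, counted from the 5′ end of miR-708-5p with its own base first, were U9C, A13G, G18U, C19U, U20G and G21A. The seeds of the 3p arms differed by a shift: with miR-28a-3p moved by 1 base, 17 of 21 aligned bases matched (81.0%), and A2C, C9U, U18G and A21G, counted from the 5′ end of miR-708-3p, set them apart. Neither 3p seed occurred in any other of the 1738 mature sequences searched. This set left out the mature sequences of 1 chromosome, which the search against other genes for shared stretches below did not. A match to any of these seeds outside the set searched would have been missed.

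The mature arms of Mir28a and Mir708 shared no long stretch with each other or with the other sequences searched. Their hairpins were not compared, and the set held no mature sequence of Mir151, so a stretch shared with Mir151 would have been missed. The longest stretch that either of their 5p arms shared with the other was 8 bases, and the same holds for the 3p arms. Against 2741 mature and hairpin sequences of other genes, the longest shared stretch was 13 bases for miR-708-5p, 12 for miR-708-3p, 12 for miR-28a-5p, found in the Mir28b hairpin, and 9 for miR-28a-3p. The counts are given per gene and do not separate the 5p and 3p arms.

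The letters AGGAGCU of the shared seed, searched in the mature strand only, were found in 9 of the 1738 mature sequences (0.518%). Mir151 has no mature sequence in the set searched, so it could not be compared. Among the sequences searched, the nearest relative of miR-28a-5p was miR-28b, in which the letters stand at bases 1 to 7.
miR-28b: AGGAGCUcacaaucuauuuag
It matched miR-28a-5p at 19 of 21 aligned bases, yet its gene, Mir28b on chromosome 8, had 0 counts in both animals. A count of 0 allows up to 3 counts, or 0.679 CPM in animal 1 and 1.32 CPM in animal 2. Mir28c, on chromosome 15 in an intron of Samd12, had 1 and 0 counts. The measured genes in which the letters lie elsewhere in a mature sequence were Mir339 with 1072 and 708 counts, Mir7080 with 809 and 515 counts, Mir3544 with 11 and 7 counts, Mir7663 with 5 and 1 counts, and Mir6343 with 0 in both. Mir1839 had been listed as a further relative, but its 5p arm does not hold the letters and shares at most 5 bases in a row with any arm shown above.

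Each hairpin lay in an intron of a protein-coding gene on the same strand. Positions are on mm10 with the GENCODE M21 annotation. Mir151 (ENSMUSG00000065612.1) spans 73254815 to 73254882 of chromosome 15, minus strand, in intron 22 of 31 of Ptk2, which encodes focal adhesion kinase. Mir708 (ENSMUSG00000076143.1) spans 96249424 to 96249532 of chromosome 7, plus strand, in intron 1 of 32 of Tenm4, a teneurin gene for a cell surface protein of developing neurons. Mir28a (ENSMUSG00000065494.1) spans 24827855 to 24827940 of chromosome 16, plus strand, in intron 8 of 12 of Lpp, which encodes a LIM domain protein of cell adhesion sites. Intron numbers refer to the longest principal coding transcript that spans the hairpin.

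The hosts differed in how the hairpin sits in them. Mir151 lay 2152 bases downstream of the nearest annotated Ptk2 exon in an intron of 14.6 kb, and 2 of the 9 coding transcripts of Ptk2 spanned it. The Tenm4 intron around Mir708 was 143 kb long, the nearest annotated exon lay 37434 bases upstream, and 4 of 6 coding transcripts spanned the hairpin. All 3 coding transcripts of Lpp spanned Mir28a, in an intron of 82.8 kb with the nearest exon 17151 bases downstream. Mir6394 was the only other measured miRNA gene inside these hosts or within 100 kb of a hairpin. It lies 56.1 kb from Mir708 on the same strand in Tenm4, and had 0 counts in both animals while Mir708 had 6261 and 2402.

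**Figure D1:**
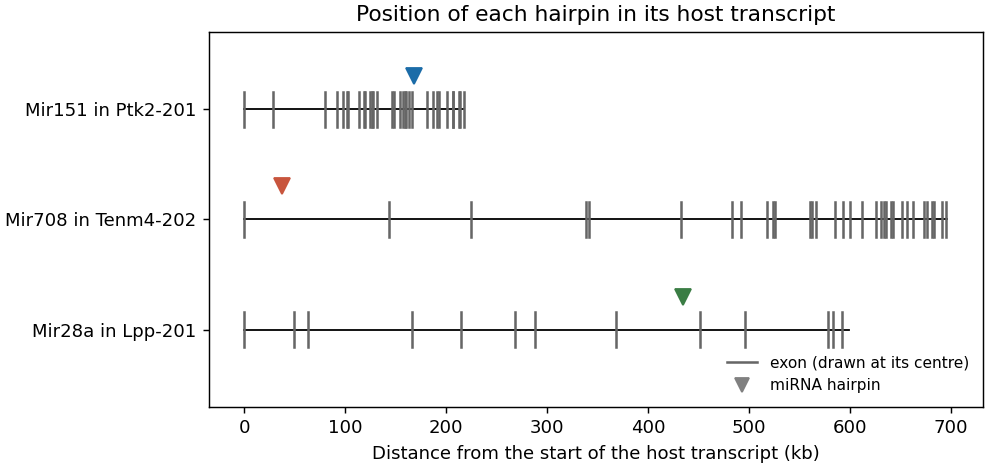
Position of the hairpins of Mir151, Mir708 and Mir28a (triangles) in a coding transcript of the host gene, with distance from the transcript start in kb and a tick at the centre of each exon. Mir708 sits in the first intron of Tenm4, Mir28a in intron 8 of Lpp and Mir151 in intron 22 of Ptk2.

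Levels are given as CPM, a gene's count scaled to a total of 1000000 counts at miRNA genes. Animal 1 had 13533476 reads, with 4415759 counted at a gene, and animal 2 had 10143234 reads, with 2279562 counted. Reads that mapped to several places were 37.4% and 25.5% of reads and unmapped reads 23.4% and 47.1%. Brackets give exact Clopper-Pearson 95% intervals, which reflect the number of reads only, since reads copied by PCR are not separate molecules. In tissue RNA, fewer cells that express a miRNA and less of it per cell cannot be told apart.

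Mir151 was by far the most abundant of the trio, followed by Mir708 and Mir28a. Mir151 had 44332 counts or 10039.5 CPM in animal 1 (9947 to 10133), against 22565 counts or 9899 CPM in animal 2 (9771 to 10028), with a mean of 9969 ± 99.5 CPM (SD, n = 2). Mir708 had 6261 counts or 1418 CPM in animal 1 (1383 to 1453), against 2402 counts or 1054 CPM in animal 2 (1012 to 1097), with a mean of 1236 ± 258 CPM. Mir28a had 2011 counts or 455 CPM in animal 1 (436 to 476), against 652 counts or 286 CPM in animal 2 (264 to 309), with a mean of 371 ± 119.8 CPM. The ranges of these genes did not overlap, so the order Mir151, Mir708, Mir28a held in both animals.

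**Figure D2:**
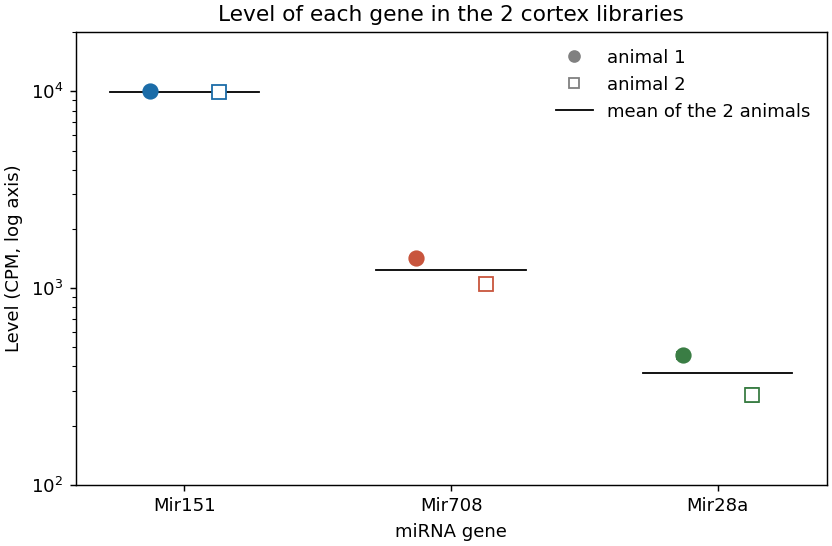
CPM (log axis) of Mir151, Mir708 and Mir28a in animal 1 (filled circles) and animal 2 (open squares), with exact 95% counting intervals, mostly smaller than the symbols, and a line at the mean. The genes keep their order in both animals, and the symbols of Mir151 lie level while those of Mir708 and Mir28a are higher in animal 1.

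Since the annotated hairpins differ in length (68, 109 and 86 bases for Mir151, Mir708 and Mir28a), levels were also divided by it. On the scale of CPM per hairpin base the mean levels were 147 for Mir151, 11.3 for Mir708 and 4.31 for Mir28a, in the same order. A read of a small RNA stands for a whole mature miRNA, so this scaling is a check and not a correction. Differences in how well each mature end is joined to the adapters were not tested.

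All 3 genes passed 2 CPM in both libraries, as did 415 of the 2202 measured genes (18.8%). Of the 722 measured genes in introns of protein-coding genes on the host's strand, where all 3 lie, 22.7% passed. By mean CPM, Mir151 ranked 20 among the measured genes, Mir708 ranked 89 and Mir28a ranked 141. Together the trio held 52604 of the counts in animal 1, or 1.19% (1.18 to 1.20%), and 25619 in animal 2, or 1.12% (1.11 to 1.14%).

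Their neighbours in the ranking could mostly not be separated from them. Mir433, directly above Mir151, had 11775 and 10541 CPM and did not overlap it, whereas Mir191, directly below, had 9528 and 10132 CPM and did. Mir708 stood between Mir93 at 1297 and 1198 CPM and Mir1839 at 1232 and 1190 CPM, and both overlapped it. Mir28a stood between Mir702 at 383 and 371 CPM and Mir15a at 273 and 469 CPM, and both overlapped it. Of the other 414 detected genes, 5 overlapped Mir151 in range, 28 overlapped Mir708 and 36 overlapped Mir28a.

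The genes closest in level over the 2 libraries were found by Euclidean distance of log2(CPM + 1). Those closest to Mir151 were Mir191 (distance 0.08), Mir149 in an intron of Gpc1 (0.25) and Mir433 (0.25). Those closest to Mir708 were Mirlet7c-2 (0.13), Mir341 (0.15) and Mir93 (0.22). Those closest to Mir28a were Mir1306 (0.36), Mir296 (0.37) and Mir322 (0.42). With 2 libraries this measure describes level alone. Mirlet7c-2 has a near-identical copy elsewhere in the genome, so its count is uncertain.

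The animals differed in Mir28a and Mir708 but hardly in Mir151. Mir28a was 1.59-fold higher in animal 1, a log2 ratio of 0.67 (0.54 to 0.80), and Mir708 was 1.35-fold higher in animal 1, a log2 ratio of 0.43 (0.36 to 0.50). Mir151 was 1.01-fold higher, a log2 ratio of 0.02 (-0.0028 to 0.044). The interval of Mir151 includes 0 and reaches 1.03-fold higher in animal 1. It covers counting error alone, with totals of all counts, and does not bound the difference between the animals. With edgeR TMM factors, DESeq2 size factors or Mir139 left out, Mir151 came to lie outside counting error, at log2 ratios of 0.045, 0.027 and 0.073. With totals of all counts, 2 of the 3 genes lay outside counting error, both higher in animal 1, against 56.6% of all 415 detected genes outside counting error, with 27% higher in animal 1 and 29.6% in animal 2. More abundant genes were outside more often, 90% of the 100 genes at a mean of 1000 CPM or more (43% higher in animal 1) and 80% of the 100 genes at 100 to 1000 CPM (35% higher in animal 1). Being outside is therefore what most genes at the level of Mir708 and Mir28a showed, while Mir151 was among the 10% of its level class inside counting error. Each animal has 1 library, so a difference between animals and one between library preparations cannot be told apart, and no p-value is given.

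Setting these ratios among those of other genes shows how ordinary or unusual each one was. The median absolute log2 ratio over detected genes was 0.34, and the median log2 ratio was -0.0029. Of the 415 detected genes, 103 differed more between the animals than Mir28a, 174 more than Mir708 and 403 more than Mir151. Mir151 was therefore among the genes with the smallest difference. Among the 100 genes at a mean of 1000 CPM or more, 93 differed more than Mir151 and 33 more than Mir708. Among the 100 genes at 100 to 1000 CPM, 17 differed more than Mir28a.

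**Figure D3:**
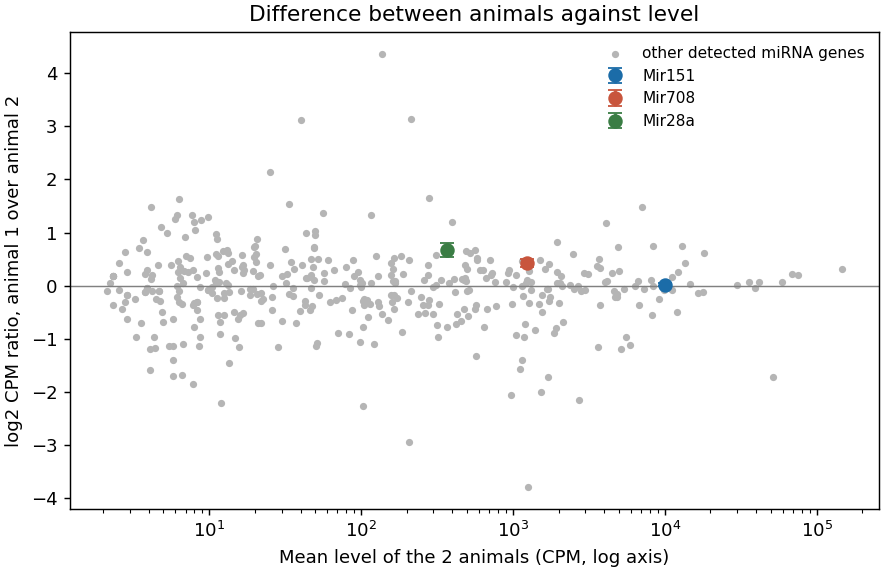
Log2 ratio of CPM in animal 1 over animal 2 against mean CPM (log axis) for the 415 genes at 2 CPM or more in both libraries, with Mir151, Mir708 and Mir28a in colour and their exact 95% counting intervals. Mir151 lies on the line of no difference at 0.02, Mir708 at 0.43 and Mir28a at 0.67, all inside the cloud of other genes.

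The balance within the trio differed between the libraries, a comparison that does not depend on the library total. Mir151 made up 84.3% of the 3 genes' counts in animal 1 (84.0 to 84.6%) and 88.1% in animal 2 (87.7 to 88.5%). Mir708 made up 11.9% in animal 1 (11.6 to 12.2%) and 9.38% in animal 2 (9.02 to 9.74%), and Mir28a 3.82% (3.66 to 3.99%) and 2.54% (2.36 to 2.75%). None of these intervals overlapped between the animals. The shares are parts of one sum, so a rise in one forces a fall elsewhere and they are not separate results. The same share over other sets of genes was not computed. For ratios of 2 genes with both means at 100 CPM or more, 79.1% of pairs had intervals apart, so such shifts are common at these counts.

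Mir151 had 7.08 counts for each count of Mir708 in animal 1 (6.90 to 7.27) and 9.39 in animal 2 (9.01 to 9.80). It had 22.0 for each count of Mir28a in animal 1 (21.1 to 23.1) and 34.6 in animal 2 (32.0 to 37.5). The ratio between the genes that share a seed differed least between the animals, by -0.24 on the log2 scale against -0.41 and -0.65 for the other ratios, as Mir708 had 3.11 counts for each count of Mir28a in animal 1 (2.96 to 3.28) and 3.68 in animal 2 (3.38 to 4.02). Intervals of all 3 ratios lay apart between the animals. So did those of 36.9% of all pairs of detected genes and of 79.1% of pairs with both means at 100 CPM or more, so this is common at such counts. Summed over both arms, the counts of Mir708 and Mir28a reached 1873 CPM in animal 1 against 1339.7 CPM in animal 2, a log2 ratio of 0.48 (0.42 to 0.54).

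**Figure D4:**
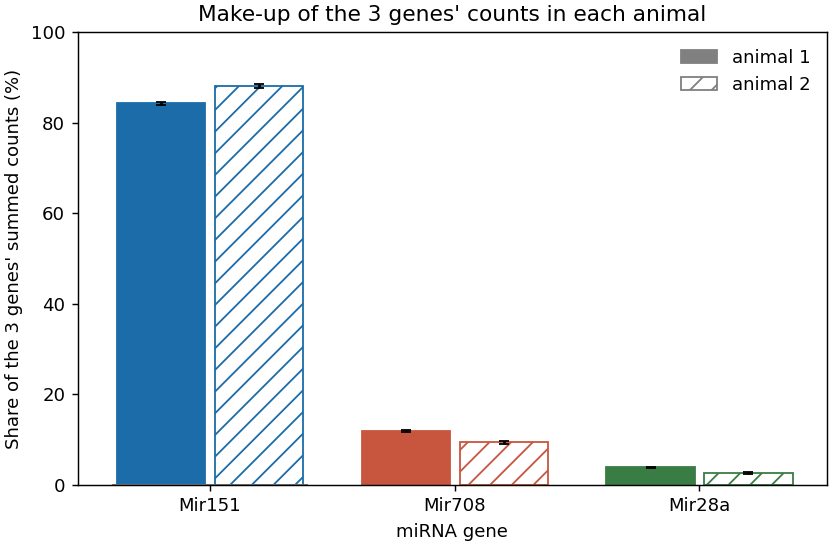
Share of the 3 genes' summed counts held by Mir151, Mir708 and Mir28a in animal 1 (filled bars) and animal 2 (hatched bars), with exact 95% intervals. Mir151 holds 84.3% and 88.1%, Mir708 11.9% and 9.38%, and Mir28a 3.82% and 2.54%.

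Marker miRNAs of other cell types also differed between the libraries. Detected neuron markers were 7 of 10, beside 18.8% of all 2202 measured genes. The others were the Mir124a copies, which are near-identical, so their counts are uncertain. Detection does not check the tissue label, since all 3 erythroid, 4 leukocyte and 3 vascular markers and the liver marker were also detected. The detected Mir128 and Mir138 markers, and Mir219a of the oligodendrocyte list, are also numbered copies, so their counts are uncertain too. Mir138-1 was higher in animal 2 and Mir138-2 in animal 1. Of 5 muscle markers, Mir206 had 23.6 and 16.2 CPM, and Mir1a-1, Mir1a-2, Mir133a-1 and Mir133a-2, which are also near-identical copies with uncertain counts, had 0 in both animals. In the direction of Mir28a and Mir708, 2 of 3 erythroid markers were higher in animal 1, with Mir486 inside counting error, and their summed level was 459 CPM in animal 1 and 91.2 CPM in animal 2. Mir122, the liver marker, had 60.9 and 36.8 CPM. In the other direction, 3 of 3 markers listed for astrocytes or reactive glia were higher in animal 2, summed at 8960 and 13935 CPM. So were 2 of 3 oligodendrocyte markers (1642 and 3461 CPM) and 3 of 4 leukocyte markers (1760 and 2313 CPM). The 3 vascular markers were also all higher in animal 2 (11469 and 15155 CPM). Of all 415 detected genes, 29.6% were higher in animal 2 and 27% in animal 1. At a mean of 1000 CPM or more, 90% lay outside counting error, so such calls are common among abundant genes. Neuron markers split, 4 higher in animal 1 and 3 in animal 2, summed at 56452 and 103620 CPM. That sum rests on Mir132, since in a recount added after seeing the data, which leaves it out, the neuron markers summed to 32063 and 24044 CPM, which turns the direction. The part of these markers in the differences of Mir28a and Mir708 was not tested.

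The counts of the trio lay almost wholly on the hairpin's own strand. Mir151 had 0 counts on the opposite strand in both animals, although 1700085D07Rik is annotated there, and Mir28a also had 0 in both. Mir708 had 7 and 1 on the opposite strand, beside 6261 and 2402 on its own.

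Other hairpins that surveys of human and mouse miRNAs have placed in transposable elements covered a wide range of levels. Of 13 listed genes 11 were measured, and 6 of these were detected, with a median of 42.7 CPM over the 11. The symbols not matched were Mir345a and Mir345b; the tables hold Mir345, at 41.2 and 54.0 CPM, which was higher in animal 2 and brings the counts to 7 detected of 12. The median over all 2202 measured genes was 0, and 18.8% of them were detected. Mir330 led at 13320 and 11105 CPM, above Mir151 in both animals, and Mir378a had 4217 and 3325 CPM. Mir421 had 230 and 267 CPM. Mir325, also attributed to LINE-2, had 102 and 95.2 CPM, below Mir28a. Of the 6, Mir330 and Mir378a were higher in animal 1, Mir421 and Mir340 in animal 2, and Mir325 and Mir374b lay inside counting error. Over all 415 detected genes 56.6% lay outside it. Repeat origin was taken from the label and from background knowledge and was not tested here.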

How the data were processed

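The authors deposited 1 table of raw read counts for each library, with no normalization. Build mm10 and annotation GENCODE M21 are stated in the deposited metadata; aligner, counter and read filters: not given in the sources used here. Of the 3 count columns, the stranded one with more counts at genes was used for both libraries, and the 4 summary entries that name no gene, 67.4% of reads in animal 1 and 77.5% in animal 2, were left out. CPM used the sum of all gene counts. Detection required 2 CPM in both libraries (8.83 and 4.56 counts). For each gene, the share of its counts from animal 1 was given an exact Clopper-Pearson 95% interval. A gene was outside counting error where that interval excluded the share given by the library totals. The call was run on simulated counts that vary by counting error alone, so that run does not address variation between libraries. A single group gives no contrast, and no differential test or p-value was computed. Python 3.11.15, scipy 1.17.1, edgeR 4.0.16 and DESeq2 1.42.0 were used, the last 2 for scaling factors only. Mature sequences came from the RefSeq table on GRCm38.p6, which matched 2 of the 3 genes; positions came from GENCODE M21.

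The genes and lists were chosen with earlier results of these data known. Genes were named by rule: the trio, the 3 closest to each in level, the genes directly above and below each in mean CPM, other miRNA genes in the same host or within 100 kb, genes whose mature sequence holds the 5p seed, and the relatives, repeat-derived, intronic and cell type lists. Alternatives were TMM and DESeq2 scaling, leaving out the most abundant gene, the unstranded column, hairpin length, other filters and pseudocounts, thinning of the deeper library and leaving out each library.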

Additional observations from a re-analysis of the deposited data

Results flagged for a closer look

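Mir708 had 7 counts on the strand opposite to its hairpin in animal 1, above the 3 counts that a count of 0 allows, in a column that entered no comparison. Animal 2 had 1 such count.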

How the results depend on the processing

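Of 69 recomputed values, 60 kept their direction and their side of the threshold or stayed within 1 SD. For levels and shares, leaving out either of 2 libraries always gives a value within 1 SD of the mean, so those values are no check. The log2 ratio of Mir151, inside counting error as reported, came to lie outside it, higher in animal 1, with edgeR TMM factors (0.045), with DESeq2 size factors (0.027) and without the most abundant gene, Mir139 (0.073); these scalings change the expected share, and the ratio stayed under 0.1. Mir28a and Mir708 remained higher in animal 1 under every scaling, the unstranded column and thinning, at 0.67 to 0.72 and 0.42 to 0.48. The mean level of Mir151 was 11685 CPM without Mir139 and 10657 CPM with the unstranded column, because the library total is smaller in each. Leaving out either library gave 9899 to 10039.5 CPM for Mir151, 1054 to 1418 for Mir708 and 286 to 455 for Mir28a. Mir151 ranked 20 by the mean, 21 without replicate 1, 22 without replicate 2 and 19 with the unstranded column. The count of genes outside counting error ranged from 207 to 256, beside 235 of 415 (56.6%) as reported; the ends differ in the genes tested, 207 of 307 (67.4%) at 10 CPM and 256 of 746 (34.3%) with 1 count in either library. In alternatives chosen after seeing the data, the log2 ratio of the neuron marker sum was 0.42 without Mir132, against -0.88 with it, and 7 in place of 6 repeat-derived genes were detected with Mir345 under its measured symbol. No paired analysis was possible because both libraries belong to a single group. With 2 libraries the SD rests on 1 degree of freedom, and differences smaller than the counting intervals were not detectable at this depth.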

Other observations

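Among miRNAs of protein-coding introns, the trio spanned the upper part of the range. The 164 detected genes in such introns had a median of 50.1 CPM, and Mir151 ranked 9, Mir708 ranked 31 and Mir28a ranked 48 among them by mean CPM. In the listed intronic comparison set 13 of 16 genes were detected, beside 22.7% of all 722 genes in such introns. Of the 13, 4 were higher in animal 1, 8 in animal 2 and 1 inside counting error. Over all 415 detected genes, 27% were higher in animal 1 and 29.6% in animal 2. The set is an abundant one, with a median of 2088 CPM, and 90% of genes at 1000 CPM or more lay outside counting error. Mir128-2, a neuronal miRNA in Arpp21, had 2968 and 1971 CPM, but it is a numbered copy, so its count is uncertain. Mir26b in Ctdsp1 had 6107 and 3698 CPM, and Mir153 in Ptprn2 had 427 and 136 CPM. These genes were higher in animal 1, as Mir28a and Mir708 were. Mir342 in Evl had 4467 and 5173 CPM, and Mir338 in Aatk had 1001 and 1788 CPM, which were higher in animal 2. Mir191 and Mir126a, also in the set, overlap an exon in this annotation.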
